A study of Mus musculus with 2 samples.

Results

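Potassium channel genes were taken as the protein-coding genes whose symbol begins with Kcn. The rule found 94 genes in 21 subfamilies, out of 21802 protein-coding genes and 53055 genes of all kinds that were measured in both libraries. Polyadenylated RNA of wild-type C57BL/6J mouse brain was sequenced in 2 libraries, each labelled male and 14 weeks old. An anterior tissue sample and a posterior tissue sample were matched in position to brain slices studied by MERFISH, in which single RNA molecules are imaged in tissue sections. Each position had 1 library and its own quantification pipeline, so position, library and pipeline cannot be told apart, no p-value can be given, and every difference below is between these 2 libraries. The sources used here do not say whether an RNA sample came from 1 animal or several, and the posterior sample's sex and age stand in its title alone.

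Potassium channels let potassium ions leave or enter a cell along their gradient and thereby set the resting voltage of neurons and glia, end action potentials and limit repetitive firing. Most are built from pore-forming subunits around a shared pore, and many also carry auxiliary subunits that alter gating or delivery to the membrane. The letter after Kcn names the subfamily. Letters a to d mark the classical voltage-gated subunits, and f, g, s and v the electrically silent subunits that work only in mixed channels. The letter q marks the subunits of the muscarine-sensitive M-current and the cardiac and epithelial Kcnq1. Letters h, j and k mark the ether-a-go-go channels, the inward rectifiers and the tandem-pore leak channels. Kcnma, Kcnn, Kcnt and Kcnu are channels opened by intracellular calcium or sodium or, for Kcnu1, by alkaline pH in sperm. Kcnab, Kcne, Kcnip, Kcnmb and Kcnrg are auxiliary or regulatory proteins.

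A feature that the choice by symbol did not use is the selectivity filter, the short loop that strips water from potassium ions. It was searched as 5 residues, namely threonine, any residue, glycine, then tyrosine, phenylalanine or leucine, and glycine, in the translated leading complete transcript of each gene. This threonine form was present in 65 of 94 members, against 1.98% of 21901 mouse proteins. The latter were translated from the longest coding sequence of each gene, so the choice of transcript differs between the 2 sets. When serine was also allowed in the first place, a widening chosen after the first result was seen, 76 of 94 members matched, against 5.35% of all proteins. All 8 Kcnh genes matched in the wider form, but Kcnh5 alone had threonine. In the Kcnn genes Kcnn4 had threonine and the other three had serine. All 14 Kcnk genes held 2 copies of the threonine form, 1 for each pore domain of the subunit. In the wider form Kcna6 and Kcnh2 also had 2 matches, the first at residues 240 to 244 and 601 to 605. These extra matches begin with serine and have leucine in the fourth place. None of the 17 auxiliary genes matched, and neither did Kcnu1, whose leading complete transcript codes for 381 residues.

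The coding bases around the filter are shown for genes that the comparisons turn on and for the serine and threonine forms in related genes. They are GENCODE M21 transcript sequences, written 5′ to 3′ in the sense of the gene, and the capitals mark the 5 filter codons. On build mm10 the capitals lie at chr6:126642228-126642242 on the minus strand for Kcna1 (exon 2), chr15:45109289-45109303 on the minus strand for Kcnv1 (exon 3), chr11:100750293-100750307 on the minus strand for Kcnh4 (exon 8) and chr12:75087466-75087480 on the minus strand for Kcnh5 (exon 7). They lie at chr15:79485367-79485381 on the minus strand for Kcnj4 (exon 2), chr1:87389021-87389035 on the minus strand for Kcnj13 (exon 2), chr3:89645512-89645526 on the plus strand for Kcnn3 (exon 4) and chr7:24379198-24379212 on the plus strand for Kcnn4 (exon 4). The first Kcnk1 copy spans the junction of exons 1 and 2, within chr8:125995808-126025019, and the second lies at chr8:126025329-126025343, both on the plus strand.
Kcna1: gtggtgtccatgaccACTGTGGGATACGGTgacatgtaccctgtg
Kcnv1: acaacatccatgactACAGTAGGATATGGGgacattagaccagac
Kcnh4: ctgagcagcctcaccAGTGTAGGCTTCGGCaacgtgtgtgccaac
Kcnh5: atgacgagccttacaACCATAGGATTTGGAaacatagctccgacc
Kcnj4: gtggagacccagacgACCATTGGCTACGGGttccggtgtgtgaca
Kcnj13: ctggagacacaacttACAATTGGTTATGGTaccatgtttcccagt
Kcnn3: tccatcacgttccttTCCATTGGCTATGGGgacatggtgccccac
Kcnn4: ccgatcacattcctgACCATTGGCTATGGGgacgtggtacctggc
Kcnk1, first copy: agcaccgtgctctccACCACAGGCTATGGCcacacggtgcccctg
Kcnk1, second copy: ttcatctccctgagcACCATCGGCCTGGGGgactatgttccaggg
The silent subunit Kcnv1 carries the threonine, valine, glycine, tyrosine, glycine filter of Kcna1. Kcnh4 has serine, valine, glycine, phenylalanine, glycine, where Kcnh5 has threonine and isoleucine in the leading places. The match is a description of the coding sequence and was not set against the levels.

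Sequencing depth was 43558839 fragments (anterior) and 147138183 fragments (posterior), a ratio of 3.38. The potassium channel genes held 303386 fragments, or 0.715% of those in protein-coding genes, in the anterior library and 879939, or 0.654%, in the posterior library. Levels between genes are given as FPKM, fragments scaled to length and library total. Of the 94 members, 70 had an FPKM of at least 1 in the anterior library, 71 in the posterior library and 68 in both, and 39 reached an FPKM of 10 in each library. Pan-neuronal markers were present in both, with Snap25 at an FPKM of 533 (anterior) and 965 (posterior). The lengths behind these FPKM differ between the libraries, so the values do not give the direction of a difference. As a share of the fragments in protein-coding genes, which uses no length, Snap25 was 1.71-fold higher in the anterior library (1.70 to 1.72, counting error only).

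**Figure D1:**
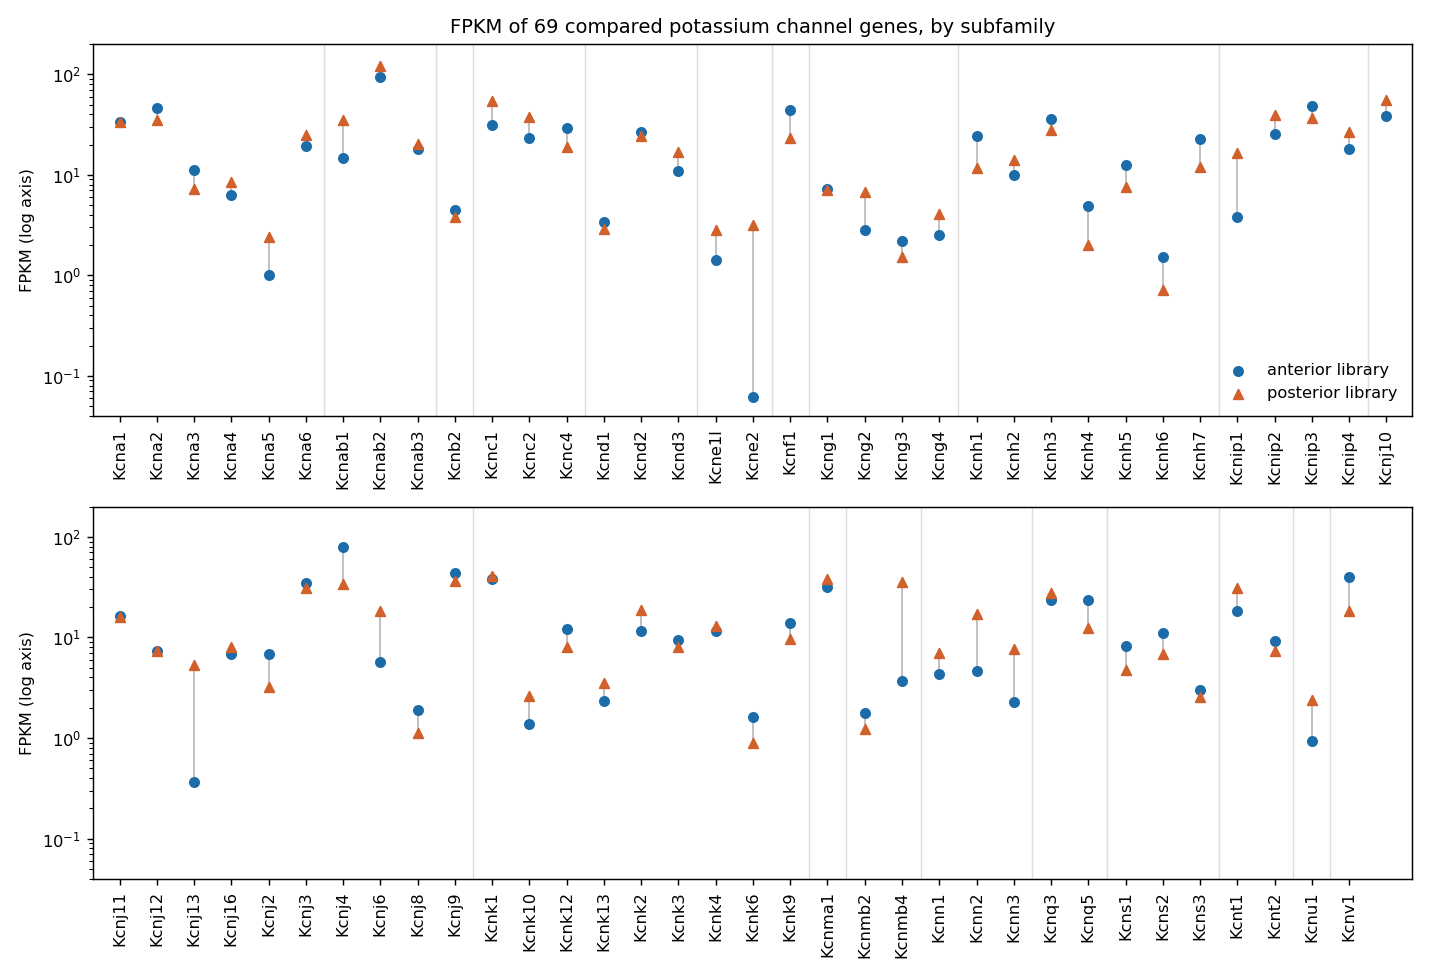
FPKM (log axis) of 69 of the 73 compared potassium channel genes, ordered by subfamily, in the anterior library (blue circles) and the posterior library (orange triangles); each symbol is 1 library, and grey lines join the values of a gene. Kcnab2 is the highest in both libraries (94.9 and 120.0), and Kcne2 has the widest gap (0.0620 and 3.16).

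Kcnab2, an auxiliary subunit of axonal channels of the Kcna subfamily, had the highest FPKM of all members in both libraries, 94.9 (anterior) and 120.0 (posterior). Among the 12 members of highest FPKM in the anterior library were also the inward rectifier Kcnj4 at 78.9, the calcium-binding Kcnip3 at 48.8, the axonal channel Kcna2 at 45.7, the silent subunit Kcnf1 at 44.1 and the G protein-gated rectifier Kcnj9 at 43.8. Kcnv1 (40.0), Kcnk1 (38.2), Kcnj10 (38.1) and Kcnh3 (36.2) were in this set too. The 12 of highest FPKM in the posterior library included, besides Kcnab2, the astrocytic rectifier Kcnj10 at 55.2 and the fast-spiking neuron channel Kcnc1 at 54.6. Kcnk1 (40.8), Kcnip2 (39.7), the large-conductance calcium-activated channel Kcnma1 (38.0), Kcnc2 (37.2), Kcnip3 (36.9) and Kcnj9 (36.3) were among them as well. The 2 sets of 12 shared 7 genes. Kcnc1, Kcnc2, Kcnip2 and Kcnma1 were among those in the posterior set alone, and Kcnj4, Kcna2, Kcnf1, Kcnv1 and Kcnh3 in the anterior set alone. Anterior FPKM use gene length and posterior FPKM effective length. When the posterior values were put on the anterior gene length, 8 of its 12 leading genes were kept. Kcnc2, Kcnip2, Kcnma1 and Kcnip3 left the set, and Kcna2 (32.7) and Kcnj4 (29.3) entered it together with Kcna1 and Kcnj3. The places of these genes in 1 set alone or in both thus depend on the length used.

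The difference between the libraries was therefore measured on fragment shares, which use no length: fragments per 1000000 protein-coding fragments (FPM), with a pseudocount of 0.5, as log2 of posterior over anterior, centred on the median of the 13339 protein-coding genes that reached an FPKM of 1 in a library. Where a gene is said to lie at a value, the value is this centred log2 difference, and paired values are anterior first, posterior second. It understates the change of genes with few fragments. Folds are plain ratios of shares, followed by their 95% exact interval for counting error. Of the 94 members, 73 passed that filter, 2 of them (Kcnh6 and Kcnk6) through the anterior library alone and 3 (Kcne2, Kcnj13 and Kcnu1) through the posterior library alone. Past 2-fold, 5 of 73 members (6.85%) were higher in the posterior library, against 8.19% of all genes compared, and 3 (4.11%) were higher in the anterior library, against 1.84%. The share on the posterior side was near the background, and the anterior share rests on 3 genes. The other 65 lay within 2-fold, and the median member was at -0.12 where the median gene is at 0. Across the 73 members, which share their 2 libraries and are not replicates, fragment shares had a Spearman correlation of 0.95, and it was 0.95 over all genes compared. In bulk tissue, fewer cells of a type and less RNA per cell cannot be told apart.

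**Figure D2:**
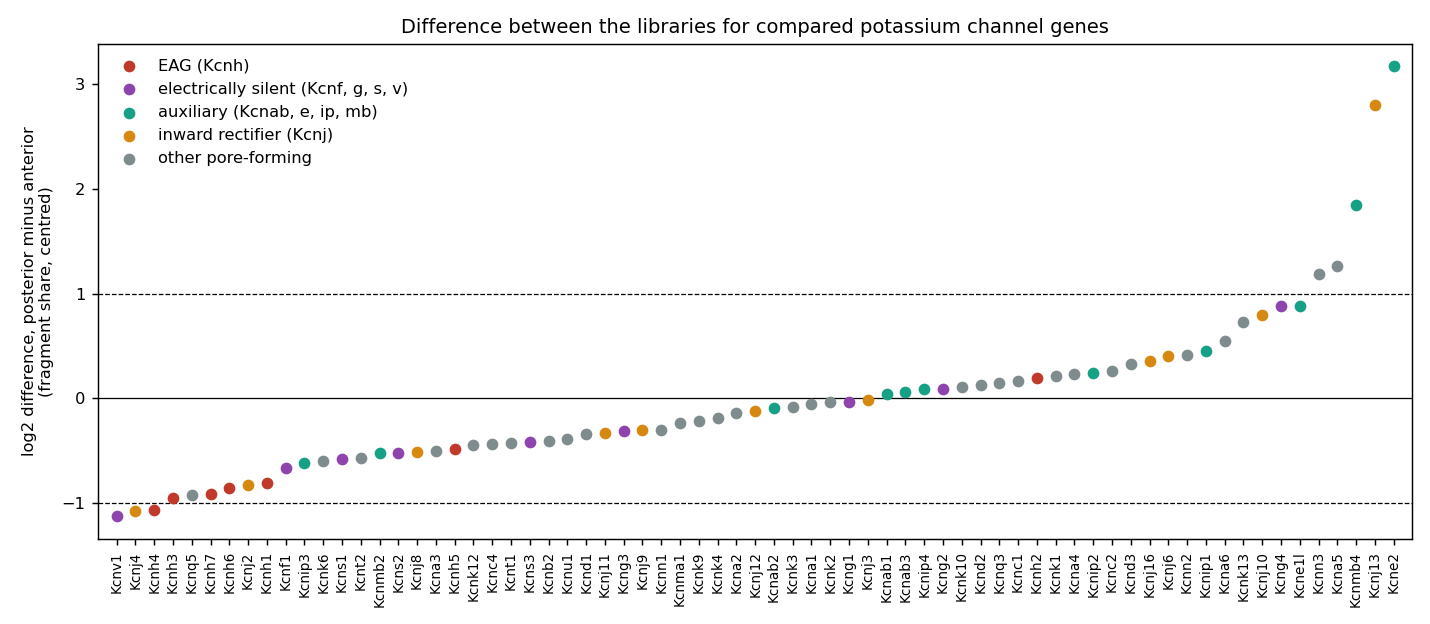
Log2 difference in fragment share, posterior minus anterior and centred on the median gene, for 69 of the 73 compared potassium channel genes in rising order, coloured by role; dashed lines mark 2-fold. Each point is 1 gene in 1 library per position. Kcnv1, Kcnj4 and Kcnh4 lie below the lower line and Kcnn3, Kcna5, Kcnmb4, Kcnj13 and Kcne2 above the upper line.

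Among the classical voltage-gated subunits, 1 of 15 compared members was past 2-fold and the median was 0.12, with 8 above and 7 below the median gene. Kcna5, a delayed rectifier best known from heart and smooth muscle, had 106 fragments (anterior) and 901 (posterior), or 2.50 and 6.70 FPM. It was 2.68-fold higher in the posterior library (95% exact interval 2.19 to 3.31, counting error only), a log2 difference of 1.26. On the FPKM scale the values were 1.01 and 2.38 and the centred log2 difference was 0.30, so that scale ended the call. The axonal channels Kcna1 and Kcna2 lay at -0.05 and -0.14. Kcna1 had an FPKM of 33.7 (anterior) and 33.5 (posterior), and it was among the 5 members nearest to 0. Of the Kcnc genes, which allow rapid repetitive firing, Kcnc2 lay at 0.26 and Kcnc1 at 0.17, and Kcnc4 lay at -0.43. Kcna6 lay at 0.54, with 39.6% of its exonic bases under another gene, and at -3.17 when posterior fragments outside transcripts annotated as protein coding were left out, which lowers the posterior side by construction. The A-type channels Kcnd2 and Kcnd3, which act in dendrites and cell bodies, lay at 0.12 and 0.33, with FPKM of 26.7 and 24.3 for Kcnd2 and of 10.8 and 16.9 for Kcnd3. The delayed rectifier Kcnb2 lay at -0.41 with an FPKM of 4.43 and 3.83.

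The electrically silent subunits, which do not form channels by themselves and modify Kcnb channels, lay below the median gene in 7 of 9 compared members, with a median of -0.42. Kcnv1 had 6697 fragments (anterior) and 9720 (posterior), an FPKM of 40.0 and 18.2, and 158 and 72.3 FPM. Its share was higher by 2.18-fold in the anterior library (2.12 to 2.25), and its log2 difference of -1.12 was the lowest of the compared members. Kcnf1 had an FPKM of 44.1 (anterior) and 23.3 (posterior) and a log2 difference of -0.67, and its share was higher by 1.59-fold in the anterior library (1.54 to 1.63), short of 2-fold. Kcns1, Kcns2 and Kcns3 lay between -0.58 and -0.42, with Kcns2 the highest in level at 11.2 and 6.80. The Kcng genes did not share a side. Kcng4 lay at 0.88, Kcng2 at 0.09, Kcng1 at -0.03 and Kcng3 at -0.31, and Kcng1 led them in level with an FPKM of 7.18 and 7.09. Kcnv2, a subunit of retinal photoreceptors, had 1 anterior and 7 posterior fragments.

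Kcnq genes of neurons make the M-current, a slow current that acetylcholine closes. Kcnq3, which forms mixed channels in most neurons, lay at 0.15 with 298 and 330.1 FPM. Kcnq5 lay at -0.93, and its share was higher by 1.90-fold in the anterior library (1.85 to 1.96), just short of 2-fold. The cardiac and epithelial Kcnq1 had 19 and 44 fragments and was not compared.

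The ether-a-go-go genes lay lower as a group than the median gene. Of 7 compared, 6 were below 0, the median of the 7 was -0.86, and 1 was past 2-fold. The middle value is that of Kcnh6, which passed the FPKM filter through the anterior library alone, so the filter favoured that side. Over all 8 Kcnh genes, with Kcnh8 from below the filter, the median was -0.83. Kcnh4 had 706 fragments (anterior) and 1034 (posterior), an FPKM of 4.89 and 2.01, and a share higher by 2.16-fold in the anterior library (1.96 to 2.38), a log2 difference of -1.07. Kcnh3, a forebrain channel, had the highest FPKM of the subfamily, 36.2 and 27.7, and lay at -0.95 with a share higher by 1.93-fold in the anterior library (1.88 to 1.99). Kcnh7 lay at -0.91, Kcnh6 at -0.86, Kcnh1 at -0.81 and Kcnh5 at -0.48. Kcnh2, which carries the rapid delayed rectifier current of the heart, stood on the other side at 0.19, with 41.2 and 47.3 FPM. Kcnh8 was below the FPKM filter with 13 and 178 fragments, and it is named after its values were seen: its share was higher by 4.32-fold in the posterior library (2.46 to 8.28).

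Marker lists of regions and cell types are set beside Kcnv1, Kcnh4 and Kcnj4. Of 12 markers of isocortical excitatory neurons, 4 were past 2-fold on the anterior side and none on the posterior side. Of these markers 9 lay below 0 and 3 above it, and their median was -0.85. Their summed share was 2863 FPM (anterior) and 1845 (posterior). The 10 thalamic markers were all past 2-fold on the posterior side, with summed shares of 172 and 971 FPM, and 7 of 8 compared hippocampal markers were too. The filter favours that side for markers that passed it through the posterior library alone. These were the thalamic Gbx2, Lef1, Tcf7l2 and Tnnt1 and the hippocampal C1ql2, Dsp and Lct. The hippocampal Tdo2 was below the filter. Inhibitory interneuron markers also had anterior calls: 2 of 8 were past 2-fold there, Npy at -1.20 and Vip at -1.14, and none on the posterior side. Their median was -0.03, with 4 above 0 and 4 below. Of 8 striatal markers, 3 were past 2-fold on the posterior side, Drd2 among them through the posterior library alone, and the median was 0.95. Pan-neuronal markers lay at -0.42 in the median. The part of this regional make-up in the differences of the channel genes was not tested.

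**Figure D3:**
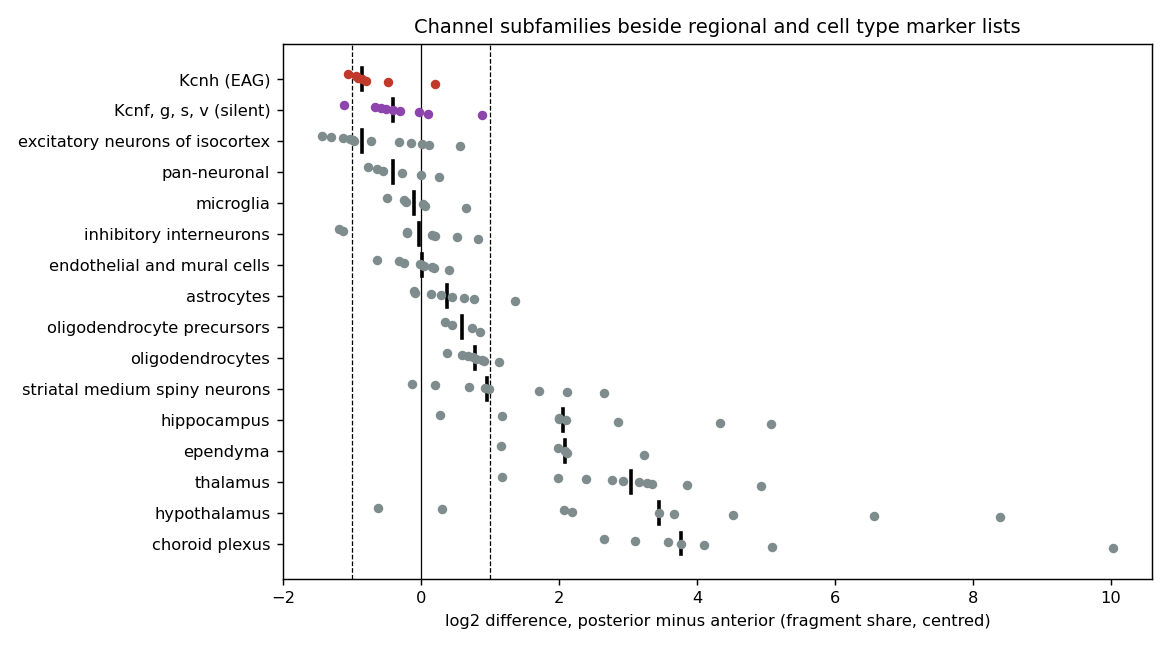
Log2 difference in fragment share, posterior minus anterior and centred, for the compared Kcnh genes (red), the electrically silent subunits (purple) and the compared genes of 14 regional and cell type marker lists (grey). Each point is a gene, black bars are medians and dashed lines mark 2-fold. The Kcnh median (-0.86) lies beside that of isocortical excitatory neurons (-0.85) by share, but by FPKM they were -1.37 and -0.88. A relation between them was not tested. The medians of thalamus (3.04), hypothalamus (3.45) and choroid plexus markers (3.76) lie on the posterior side, although 1 of 9 hypothalamus markers lies below 0. Every choroid plexus marker, and several thalamus and hypothalamus markers, passed the FPKM filter through the posterior library alone. Kcnh6, whose value is the Kcnh median, passed it through the anterior library alone.

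Inward rectifiers pass potassium more readily into the cell and hold neurons and glia near the potassium equilibrium voltage. Of 11 compared Kcnj genes, 1 was past 2-fold in each direction, and the median was -0.12. Kcnj4, a strong rectifier of forebrain neurons, had 6202 and 9290 fragments, an FPKM of 78.9 (anterior) and 33.9 (posterior), and a share higher by 2.12-fold in the anterior library (2.05 to 2.18), a log2 difference of -1.08. Its relatives Kcnj2 and Kcnj12 lay at -0.83 and -0.12. The G protein-gated rectifiers, which open when inhibitory receptors release the beta and gamma subunits of G proteins, stayed within 2-fold among those compared. Kcnj3 lay at -0.02 and Kcnj9 at -0.31, and Kcnj6 lay at 0.40. In Kcnj3 31.1% of the exonic bases lie under another gene. Kcnj5, the least abundant of the G protein-gated rectifiers, was below the FPKM filter at 0.129 and 0.594. It is named after its values were seen, and its share was higher by 4.65-fold in the posterior library (3.02 to 7.52).

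Kcnj13 encodes a rectifier of transporting epithelia such as the choroid plexus, which secretes cerebrospinal fluid. It had 17 fragments (anterior) and 777 (posterior), an FPKM of 0.367 and 5.37, and a share higher by 14.4-fold in the posterior library (8.95 to 24.9). Kcne2, an auxiliary subunit that is also known from the choroid plexus, had 4 and 653 fragments, an FPKM of 0.0620 and 3.16, and a share higher by 51.5-fold in the posterior library (20.0 to 189.7). The log2 differences were 2.80 for Kcnj13 and 3.17 for Kcne2, the highest of the compared members. All 7 choroid plexus markers were past 2-fold on the posterior side, with a median of 3.76, and their summed FPKM was 0.759 (anterior) and 662 (posterior). Each of the 7, like Kcnj13 and Kcne2, passed the FPKM filter through the posterior library alone, so the filter favoured that side. Ttr, the thyroid hormone carrier made by this epithelium, had 4 anterior and 83721 posterior fragments. The part of choroid plexus tissue in the values of both genes was not tested. Kcnj13 overlaps exons of the opposite-strand gene Gigyf2 over 49.1% of its exonic bases, and the sources used here do not state how strand was used in the anterior counts.

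Kcnj10, the channel with which astrocytes and oligodendrocytes take up potassium, had an FPKM of 38.1 and 55.2. Its share was 177 FPM (anterior) and 309 (posterior), 1.74-fold higher in the latter (1.70 to 1.79), a log2 difference of 0.80. Its glial partner Kcnj16 lay at 0.35. Astrocyte markers had a median of 0.37, with 6 of 8 above 0 and 1 past 2-fold on the posterior side. Oligodendrocyte markers had a median of 0.77, with 8 of 8 above 0 and 1 past 2-fold. Their part in the Kcnj10 value was not tested. The pore subunits of channels closed by ATP, Kcnj11 and Kcnj8, lay at -0.33 and -0.52. Kcnj11 had an FPKM of 16.4 and 15.9, and Kcnj8, which marks pericytes, 1.90 and 1.12.

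Tandem-pore leak channels set the resting conductance and are opened or closed by acid, stretch, lipids and anaesthetics. None of 9 compared Kcnk genes was past 2-fold, against the 8.19% and 1.84% of all genes, and the median was -0.08. Kcnk1 led in level with an FPKM of 38.2 and 40.8 and lay at 0.21. Kcnk2, a channel sensitive to stretch and lipids, lay at -0.04 and was among the 5 members nearest to 0, with 49.1 and 48.0 FPM. Of its exonic bases 12.2% lie under another gene. The acid-sensitive Kcnk3 and Kcnk9 lay at -0.08 and -0.22, and Kcnk4, with 13.1% overlap, lay at -0.19. Kcnk13, known from microglia, lay at 0.73 with an FPKM of 2.33 and 3.51, while the 6 microglial markers had a median of -0.10. Kcnk16 had no fragment in either library, which allows up to 0.0707 FPM (anterior) and 0.0223 (posterior) (3 fragments, counting error only).

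The Kcnma, Kcnn, Kcnt and Kcnu genes were within 2-fold in 6 of 7 compared members, with a median of -0.30. All but Kcnu1 code for channels opened by calcium or sodium. Kcnu1, opened by alkaline pH, is among the 7 and passed the FPKM filter through the posterior library alone. The large-conductance channel Kcnma1 had an FPKM of 31.5 and 38.0 and lay at -0.23. Kcnn3, a small-conductance calcium-activated channel found in midbrain dopamine neurons and other cells, had 862 and 6320 fragments. Its FPKM was 2.26 (anterior) and 7.76 (posterior), and its share was 2.31-fold higher in the latter (2.15 to 2.49), a log2 difference of 1.19. In the posterior library 78.5% of these fragments were assigned to a transcript annotated as having a retained intron. The anterior library has no values by transcript, so the fragments of that transcript could not be set apart there, and with them left out of the posterior library alone, which lowers that side by construction, the log2 difference was -0.86. On the FPKM scale the difference was 0.95, short of 2-fold. Kcnn2 lay at 0.42 and had the highest posterior FPKM of the subfamily, 17.0 against 4.62 in the anterior library, and Kcnn1 lay at -0.30. The sodium-activated Kcnt1 and Kcnt2 lay at -0.42 and -0.57, with Kcnt1 at an FPKM of 18.3 and 31.3. Kcnu1, known from sperm, had 127 and 293 fragments, and 0.248% of its posterior FPKM lay in the transcript that codes for 1121 residues.

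Among auxiliary subunits, 2 of 11 compared members were past 2-fold, both on the posterior side, where 8.19% of all genes were, and 1 of them, Kcne2, passed the filter through that library alone. The median was 0.09. The other member past 2-fold was Kcnmb4, the neuronal beta subunit that slows the activation of Kcnma1 channels and lowers their toxin sensitivity. It had 452 fragments (anterior) and 5351 (posterior), an FPKM of 3.72 and 35.7, and a share higher by 3.74-fold in the posterior library (3.39 to 4.12), a log2 difference of 1.85. Of its exonic bases 31.5% lie under the antisense genes Kcnmb4os1 and Kcnmb4os2. Among all compared genes with at least 30% overlap, 53.8% were past 2-fold on the posterior side, against 5.73% of those with under 10%. In 7 members the overlap is at or above 10%, among them Kcnj13, Kcna6, Kcnmb4, Kcnj3, Kcnk4 and Kcnk2. Without them 3 of 66 members (4.55%) were past 2-fold in each direction, Kcne2, Kcna5 and Kcnn3 on the posterior side. All genes with under 10% overlap, centred on their own median, were past it in 6.03% (posterior) and 1.79% (anterior).

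The other 9 compared auxiliary subunits stayed within a centred log2 difference of 1. Kcnab1 lay at 0.05 and Kcnab2 at -0.09, and Kcnab3 lay at 0.06. The Kcnip proteins bind Kcnd channels and raise their surface level; Kcnip1 lay at 0.46, Kcnip2 at 0.24 and Kcnip4 at 0.09, while Kcnip3, which also acts as a calcium-sensitive transcription repressor, lay at -0.61. Kcnip1 differed by scale: its FPKM was 3.77 and 16.3, yet its share was 20.1 and 27.8 FPM. Kcne1l lay at 0.88 with 80 and 526 fragments, and Kcnmb2, which inactivates Kcnma1 channels, lay at -0.52. The regulator Kcnrg had an FPKM of 0.270 and 0.354. Along with Kcnrg, the members below the filter were Kcna7, Kcna10, Kcne1, Kcne3, Kcne4, Kcnh8, Kcnj1, Kcnj5, Kcnj14, Kcnj15, Kcnk5, Kcnk7, Kcnk15, Kcnk16, Kcnk18, Kcnmb1, Kcnmb3, Kcnn4, Kcnq1 and Kcnv2, of which 5 (Kcna7, Kcnj1, Kcnj15, Kcnk16 and Kcnk18) had 3 fragments or fewer in each library.

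Proteins that bind potassium channels, taken from 8 lists, were compared for 30 of 31 genes. On the fragment share scale 1 was past 2-fold in each direction, where 8.19% (posterior) and 1.84% (anterior) of all genes were. The median was -0.11. Both partner genes past 2-fold were gamma subunits that ease the opening of Kcnma1 channels. Lrrc55 had 885 anterior and 6910 posterior fragments and an FPKM of 5.94 and 15.1, and its share was higher by 2.46-fold in the posterior library (2.30 to 2.65). Lrrc26 had 73 and 7 fragments and an FPKM of 1.68 and 0.0527, and its share was higher by 33.0-fold in the anterior library (15.3 to 85.1). It passed the filter through that library alone, its fold rests on 7 posterior fragments, and with the pseudocount its log2 difference was -2.01. The highest of the other lists lay within 2-fold. Dlg4 of the axonal Kcna complex had an FPKM of 66.0 and 221 and a log2 difference in share of -0.24. Dpp6, a membrane partner of Kcnd channels, lay at 0.35 with an FPKM of 21.6 and 63.8. Vapa, which with its relative Vapb tethers Kcnb channels to the endoplasmic reticulum, lay at -0.02 with an FPKM of 42.8 and 43.7. Calm2, a calmodulin gene whose product is a partner of Kcnq channels, lay at -0.50 with an FPKM of 1163 and 1042. Abcc8, the sulfonylurea receptor paired with Kcnj11, lay at -0.03 with an FPKM of 4.90 and 10.7. Gnb1, a G protein beta subunit that gates Kcnj3 channels, lay at -0.23 with an FPKM of 184 and 196. Dtna, an anchor of the perivascular astrocyte complex that holds Kcnj10 and Aqp4, lay at 0.05 with a posterior FPKM of 33.4, and Aqp4, the astrocyte water channel, had the highest anterior FPKM of that list, 20.8, and lay at 0.76.

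The FPKM scale gave another picture for the members. By FPKM, with its own centring (a shift of 0.63 in log2), 5 of 73 members (6.85%) were past 2-fold on the posterior side, against 14.5% of all genes, and 23 (31.5%) on the anterior side, against 7.11%. The median member was at -0.64. The ratio of anterior gene length to the effective length implied by the posterior values had a median of 1.31 over the members and of 1.87 over all genes compared. Of the 8 members past 2-fold by share, 6 were past it by FPKM in the same direction, namely Kcne2, Kcnj13, Kcnmb4, Kcnv1, Kcnj4 and Kcnh4. The G protein-gated Kcnj6 had an FPKM of 5.67 and 18.4 and a log2 difference of 0.99 by FPKM, against 0.40 by share.

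**Figure D4:**
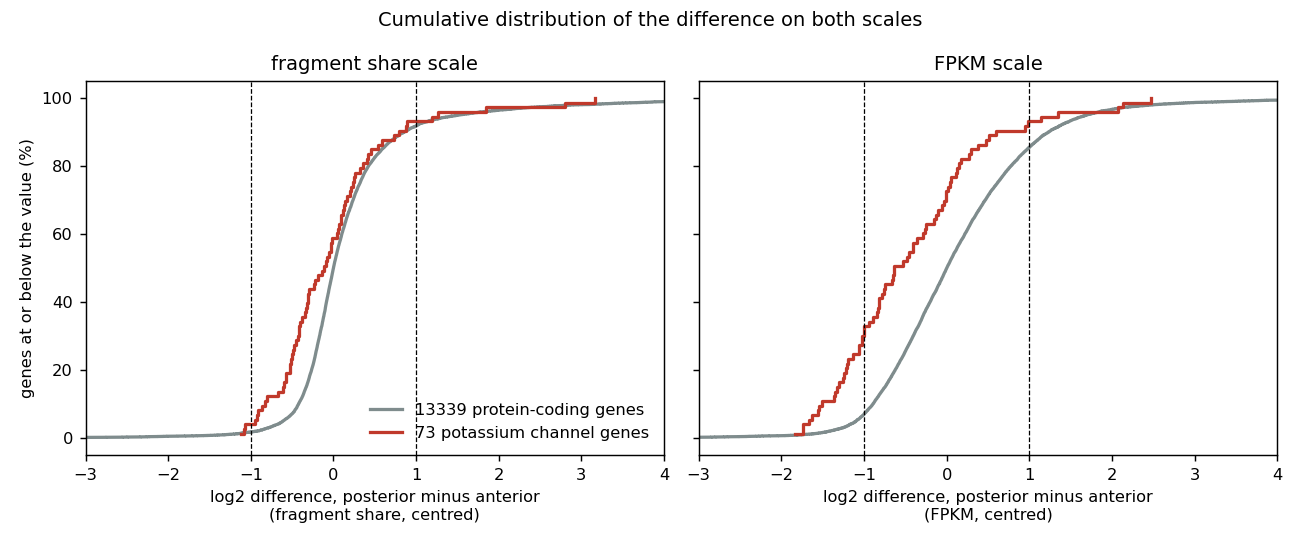
Cumulative share of genes (%) at or below each log2 difference, posterior minus anterior and centred, for the 73 potassium channel genes (red) and all 13339 compared protein-coding genes (grey), by fragment share (left) and by FPKM (right); dashed lines mark 2-fold. The red curve lies close to the grey one by share (median -0.12) and well to its left by FPKM (median -0.64).

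The posterior library was quantified by transcript and held 409 transcripts of the members, with a median of 3 for each gene, and 17 members had 1 transcript. Of the 54 members with a posterior FPKM of at least 5, 46 had several transcripts. In 11 of these a transcript held at least 90% of the FPKM, and in 13 the leading transcript held less than 60%. Transcript values are estimates of Salmon, which splits fragments shared by overlapping transcripts, and no error of that estimate was used here. The anterior library has values by gene alone, so transcripts could not be compared between the libraries.

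**Figure D5:**
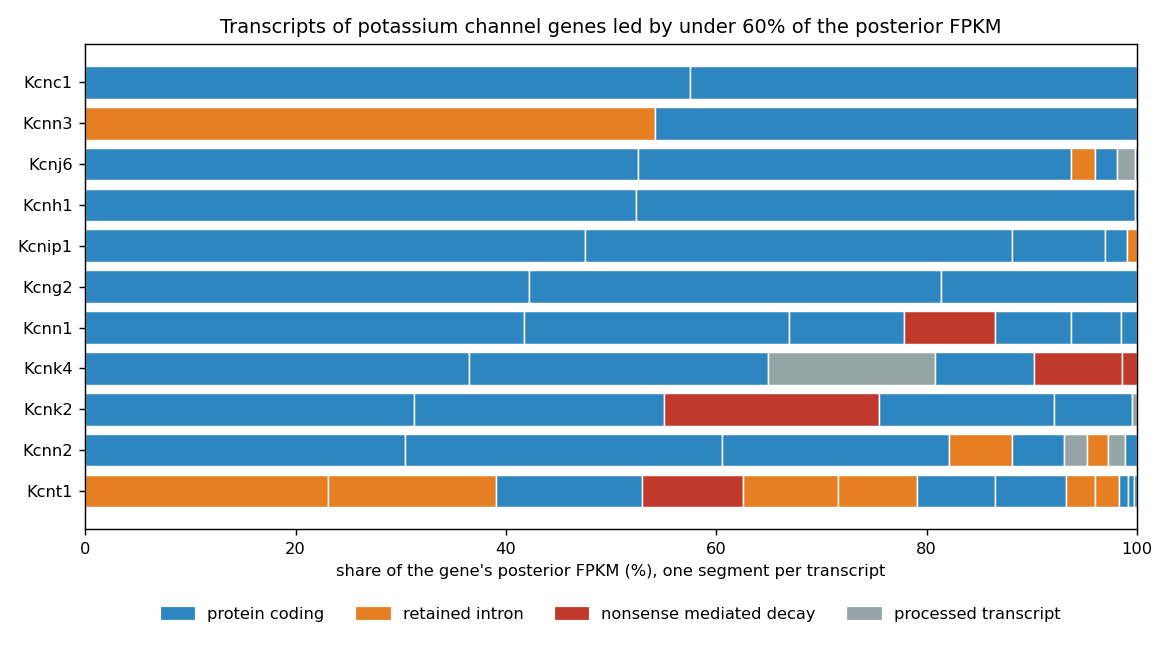
Share of the posterior FPKM of each gene (%) held by each of its transcripts, 1 segment for each transcript, for 11 of the 13 potassium channel genes with a posterior FPKM of at least 5 and a leading transcript below 60%; colours give the annotated transcript type. Kcnn3 and Kcnt1 are led by retained-intron transcripts (54.1% and 23.1%), and Kcnc1 and Kcnh1 divide between protein-coding transcripts.

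In 3 members the leading transcript was not annotated as protein coding. Kcna6-201 held 86.5% of the Kcna6 FPKM and is annotated as a target of nonsense-mediated decay, although it carries an open reading frame of 529 residues, as many as the protein-coding Kcna6-204, which held 6.41%. The gene that overlaps it is the antisense Gm26673. Kcnn3-202, with a retained intron and a length of 8314 bases, held 54.1% of the Kcnn3 FPKM, and Kcnn3-201, which codes for 732 residues, held 45.9%. In Kcnt1 the retained-intron transcript Kcnt1-206 led with 23.1%, and Kcnt1-201, coding for 1238 residues, held 13.9%. The leading share was also under 40% in Kcnk2 (31.3%), Kcnk4 (36.5%) and Kcnn2 (30.4%). By fragments in place of FPKM the leader changed in 5 of the compared members, Kcnc1, Kcng2, Kcnk2, Kcnk4 and Kcnn2.

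Several members divided their FPKM between transcripts that code for different proteins. Kcnc1-203, with 57.5% of the FPKM, codes for 585 residues and Kcnc1-201, with 42.5%, for 511. They share the first 501 residues and differ in the tail that follows. In Kcnh1 the transcripts were near balance, with 52.4% in Kcnh1-202 (962 residues) and 47.4% in Kcnh1-201, which has 27 more residues inserted after residue 317. Kcnip1-203 (47.6%) has 11 residues near its start that Kcnip1-201 (40.6%) lacks. Kcnj6-202 (52.6%) ends in 11 residues more than Kcnj6-201 (41.2%). Kcnq5-203 (22.4%) has an insert of 19 residues relative to Kcnq5-201 (73.4%), and Kcnt2-203 (34.9%) an insert of 24 relative to Kcnt2-202 (61.0%). For Kcns2 (72.9% and 27.1%) both transcripts code for identical proteins and differ outside the coding sequence.

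The coding bases that set these isoforms apart are shown because the study concerns imaging that resolves isoforms. They are GENCODE M21 transcript sequences in the sense of the gene, 5′ to 3′, and the letters are the codons of residues that the partner transcript lacks. On mm10 the Kcnh1-201 insert lies at chr1:192277091-192277171 on the plus strand in exon 6, and the Kcnj6-202 end at chr16:94762363-94762395 on the minus strand in exon 4. The Kcnip1-203 bases lie within chr11:33645626-33651570 on the minus strand in exons 2 and 3, the Kcnq5-203 insert within chr1:21457624-21461606 on the minus strand in exons 10 and 11, and the Kcnt2-203 insert within chr1:140530754-140533861 on the plus strand in exons 20 and 21. For Kcnc1, the 90 bases that open the tail of Kcnc1-203 lie within chr7:46428279-46435246 in exons 2 and 3, and the 30 bases of the Kcnc1-201 tail at chr7:46428279-46428308 in exon 2, both on the plus strand.
Kcnh1-201: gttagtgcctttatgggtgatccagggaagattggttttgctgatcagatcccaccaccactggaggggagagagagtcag
Kcnj6-202: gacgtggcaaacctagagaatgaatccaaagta
Kcnip1-203: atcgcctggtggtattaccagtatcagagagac
Kcnq5-203: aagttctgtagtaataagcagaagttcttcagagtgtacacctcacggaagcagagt
Kcnt2-203: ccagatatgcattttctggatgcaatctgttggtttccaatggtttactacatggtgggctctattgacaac
Kcnc1-203: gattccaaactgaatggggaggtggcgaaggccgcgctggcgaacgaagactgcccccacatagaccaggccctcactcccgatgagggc
Kcnc1-201: ggtaggaaacctctcagaggcatgtcgatc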

How the data were processed

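Gene FPKM values were deposited for the anterior library, from reads aligned with HISAT2 2.0.5 to mm10, per the submitters' processing notes; the sources used here name neither the counting program nor its strand setting. Anterior fragments were recovered from the deposited FPKM and gene length and were whole for 100% of 54532 genes (tolerance 0.001). Estimated counts and TPM per transcript were deposited for the posterior library, from Salmon with GENCODE, per the labels' protocols. Posterior FPKM was computed from these estimated counts and effective lengths and summed by gene; the deposited TPM served as an alternative order.

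Genes were joined by identifier. Differences used fragments per 1000000 protein-coding fragments, a pseudocount of 0.5, an FPKM filter of 1 and median centring; folds are share ratios without a pseudocount, with exact 95% Clopper-Pearson intervals for counting error only. With 1 library per position no test was possible. The scripts were tested on simulated data. Overlap and sequences come from GENCODE M21 (mm10); the planned protein table was not used here, so the filter was searched in translated transcripts. Python 3.11.15, pandas 2.3.3, scipy 1.17.1 and edgeR 4.0.16 (TMM factors alone) were used. The members and all lists were chosen with earlier results of these data known. Members named are the 12 of highest FPKM in each library, the highest of each subfamily, those past 2-fold, the 5 nearest 0, those led by a transcript under 40% or not protein coding, and those without fragments; the rest are named to describe their subfamily. Values of 4 members are not reported here, though they enter the counts and medians.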

Additional observations from a re-analysis of the deposited data

Results flagged for a closer look

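Antisense genes named after potassium channel genes lie outside the protein-coding set and showed fragments in both libraries, which brings them here as signal in data the comparisons do not use. Kcnmb4os2 had an FPKM of 2.34 (anterior) and 4.02 (posterior), or 173 and 317 fragments. Its neighbour Kcnmb4os1 had 0.166 and 0.532, or 5 and 42 fragments. Kcnd3os had an FPKM of 0.708 and 1.67, or 35 and 130 fragments, and Kcnab3os 0.242 and 0.292, or 5 and 12 fragments. These FPKM use different lengths and do not give the direction of a difference. For Kcnmb4os2 and Kcnab3os the FPKM was higher in the posterior library, yet fragments rose by less than the depth ratio of 3.38. Kcnq1ot1, an imprinted RNA that silences neighbouring genes on the paternal chromosome, had 0.597 and 1.43, or 2031 and 19473 fragments, while the protein-coding Kcnq1 had 19 and 44. The sources used here do not state how strand was used in the anterior counts, so fragments of an antisense gene and of its partner cannot be told apart where their exons overlap.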

How the results depend on the processing

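No paired analysis was possible because each position had 1 library, and for the same reason no library could be left out. The main counts were 5 members past 2-fold on the posterior side and 3 on the anterior side, with a median of -0.12. By FPKM the anterior count was 23 (31.5%, against 7.11% of all genes) and the median -0.64. Restricted to genes with under 10% exonic overlap, an alternative added after seeing the data, the count was 20 and the median -0.60. That count is 30.3% of 66 members, against 6.37% of all such genes. By share with under 10% overlap 3 members (4.55%) were past 2-fold on each side, against 6.03% (posterior) and 1.79% (anterior) of such genes. With a filter at an FPKM of 5, 3 members (5.36%, against 6.24% of all genes) were past 2-fold on the posterior and 2 (3.57%, against 1.11%) on the anterior side, with a median of -0.036. At 1.5-fold the counts of 73 were 10 (posterior) and 12 (anterior), against 15.1% and 5.53% of all genes on the same sides. With non-coding transcripts left out of the posterior library alone, the anterior count was 3 (4.11%, against 4.85% of all genes), and the construction sets which genes: Kcnn3 reversed to -0.86, and Kcna6 (-3.17) and Kcnt1 (-1.51) passed 2-fold, through removed fragments, while Kcnj4 and Kcnh4, with nothing removed, moved by the common shift of 0.11 to -0.96 and Kcnv1 stayed past 2-fold (-1.08). For the other moves the cause was not tested. Another pseudocount, no centring, TMM factors and a total without mitochondrial genes kept the median and both counts close to the main values. Depth limits the low genes: Kcne2 rests on 4 anterior fragments.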
